A study of Danio rerio with 4 samples.

Results

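Among 22730 chromatin peaks compared between run 3 and run 1 of the nuclei of zebrafish heart noncardiomyocytes, 600 peaks (2.64%) were at least 2-fold higher in run 3 and 644 peaks (2.83%) were at least 2-fold lower. A run is a block of consecutive rows of the deposited matrix within which the nucleus barcodes are in sorted order. A new run starts where a barcode sorts before that of the row above it. This rule cut the 2737 nuclei into 4 runs, and the comparison is about the 748 nuclei of run 3 and the 430 nuclei of run 1, together 1178 nuclei. The other nuclei are in run 2 (715) and run 4 (844).

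The study profiled nuclei from the hearts of wild type fish at 0, 2, 7 and 14 days post amputation (dpa), with 1 library for each time point. In the amputation, part of the apex of the ventricle was cut away. The paper describes the ventricles as uninjured and regenerating, so not all 4 groups had been amputated. All 4 groups were made from isolated noncardiomyocytes (nonCMs), are labelled with the same genotype, and were prepared by the same protocol. The labels do not give the age of the fish or how many hearts went into a library. Neither a row name nor a nuclei count in the sources used here ties a run to a library, so the runs are called runs, none of the 4 time points is assigned to one, and nothing below describes a change after amputation.

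NonCMs of the heart include the epicardium and its fibroblasts, the endocardium and other endothelial cells, macrophages and further blood cells. The zebrafish heart regrows muscle after injury, and nonCMs are known to supply matrix, blood vessels and signals in that process. In single-cell ATAC-seq, a transposase cuts DNA that is not wrapped tightly in nucleosomes, so a promoter or enhancer in use gives fragments and the same site in a cell type that does not use it gives few. A peak that is open in 1 cell type is therefore open in only part of a mixed population of nuclei, and its level in the mixture follows the share of that cell type as well as the state of each nucleus. These 2 cannot be told apart from the level of a peak in a whole run.

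The deposited matrix gives for each nucleus and each of 50394 peaks a 1 where the peak was open and a 0 where it was not. Run 3 held 1167038 open calls and run 1 held 670913. The median number of open peaks in a nucleus was 1230 in run 3 (95% binomial interval of the median 1187 to 1293), against 1382.5 in run 1 (1284 to 1509), and a mean of 1560.21 in run 3 and 1560.26 in run 1. The range was 234 to 10959 in run 3 and 77 to 5497 in run 1. Run 2 had a median of 1294 and run 4 a median of 898.5. No barcode occurred in both run 3 and run 1, while 6 barcodes occurred in rows of 2 runs, of which 3 were shared by runs 2 and 3, 1 by runs 3 and 4, 1 by runs 1 and 2 and 1 by runs 1 and 4.

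For each peak, the open calls of a run were divided by all open calls of that run and multiplied by 1000000 (CPM). One open nucleus was worth 0.857 CPM in run 3 and 1.49 CPM in run 1. After 10 CPM was added to both, the log2 ratio of run 3 over run 1 was taken, which understates the difference of a rarely open peak. Peaks open in 20 or more nuclei of both runs together were compared, which kept 85.9% of the open calls of run 3 and 88.1% of those of run 1. A peak was called at a log2 ratio of 1 or more, or -1 or less. There is 1 run on each side and nuclei are not replicates, so no test was made. For shares of nuclei and CPM ratios, 95% intervals by the exact Clopper-Pearson method are given, and these take in only the error of counting.

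The middle of the distribution lay close to 0, with a median log2 ratio of 0.03, and the SD over peaks was 0.52. Counting error is large at this depth. A peak open in 20 nuclei and at equal CPM in both runs has an interval on its log2 CPM ratio, without the added 10 CPM, of -1.34 to 1.66. The same interval is -0.85 to 0.95 at 50 nuclei and -0.43 to 0.44 at 200 nuclei. Of the 600 higher peaks 434 were open in fewer than 50 nuclei, as were 271 of the 644 lower peaks, and a single one of these peaks is loosely measured.

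**Figure D1:**
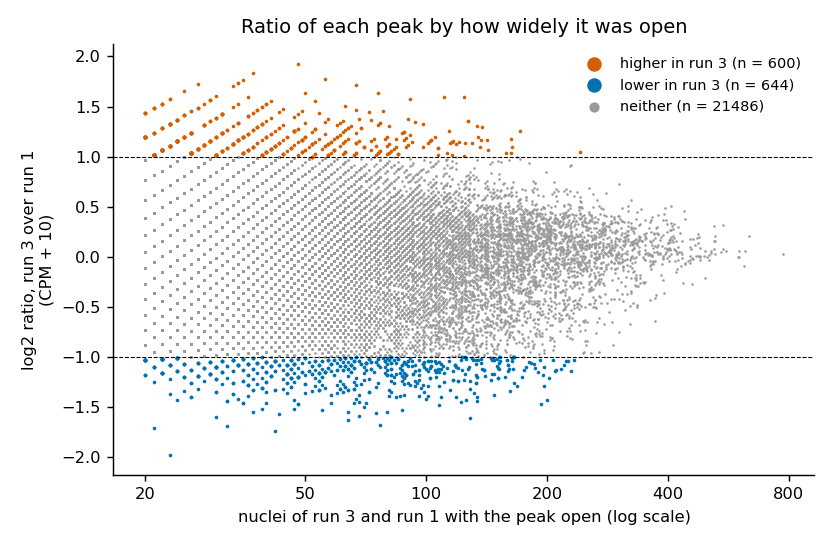
Each point is a peak, with the number of nuclei of run 3 and run 1 in which it was open on the x axis (log scale) and its log2 ratio of run 3 over run 1 on the y axis. At 100 or more nuclei the orange peaks (36 of the 600 at 1 or more) are fewer than the blue ones (136 of the 644 at -1 or less), and at 400 or more nuclei no peak is past either dashed line.

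The balance between the directions moved with how widely a peak was open. Run 3 holds more nuclei than run 1, so counting error does not weigh equally on the 2 directions among rarely open peaks. Its part in the balance was not tested. Between 20 and 49 open nuclei, 3.59% of 12086 peaks were higher and 2.24% were lower in run 3. Between 50 and 99, 2.14% of 6061 were higher and 3.91% lower, and between 100 and 199, 1.03% of 3407 were higher and 3.67% lower. Among the 1080 peaks open in 200 to 399 nuclei, 1 was higher and 11 were lower. None of the 96 peaks open in 400 or more nuclei was called, and their SD was 0.14. Over all peaks open in 50 or more nuclei, 166 of 10644 were higher and 373 were lower, so that higher peaks made up 30.8% of the called peaks there, against 48.2% of all called peaks. Over all compared peaks, higher peaks were 31.0% of the called peaks with 20 CPM added in place of 10, and 53.5% with 5 CPM added.

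The 5 peaks open in most nuclei lie on chromosomes 12, 14, 20, 5 and 3, and differed little. The most open one, chr12:22559697-22560702, was open in 494 nuclei of run 3 (66.0%, interval 62.5 to 69.4%), against 278 nuclei of run 1 (64.7%, 59.9 to 69.2%). Its log2 ratio was 0.03. Over the 5 peaks, the log2 ratio ran from -0.09 to 0.21 and every pair of intervals overlapped. Coordinates are those of the deposited matrix, for which the submitters' processing notes name danRer11, the zebrafish build also called GRCz11. Gene models and sequence of that build were not used here, so a peak is given by its position and not as exonic, intronic or intergenic, except where a gene name is stated.

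Turning to the peaks higher in run 3, the 10 with the highest log2 ratios among peaks open in 50 or more nuclei lie on 8 chromosomes. They were open in 6.15 to 14.4% of the nuclei of run 3 and in 0.930 to 3.72% of those of run 1. All 10 had intervals on the 2 shares that did not overlap, as the choice of extremes among 10644 peaks favours. Run 4 had fewer open peaks per nucleus than run 3, and its order relative to run 3 depended on the scale. In CPM, run 4 was above run 3 at 4 of the 10 peaks and run 2 was above run 3 at 2.

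The highest ratio belonged to chr23:34081643-34082271, which was open in 52 nuclei of run 3 (6.95%, interval 5.24 to 9.02%), against 4 nuclei of run 1 (0.930%, 0.254 to 2.36%). In CPM this was 44.6 in run 3 and 5.96 in run 1, a log2 ratio of 1.77. The CPM ratio was 7.47 with an interval of 2.75 to 28.5, so its size is loosely fixed by 4 nuclei in run 1. Runs 2 and 4 had it open in 4.34% and 5.09% of nuclei, which was 29.2 and 51.1 CPM, so that on the CPM scale run 4 was above run 3.

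A pair of peaks far apart on chromosome 12 came next. The first, chr12:20335978-20336350, was open in 61 nuclei of run 3 (8.16%), against 6 nuclei of run 1 (1.40%), with a log2 ratio of 1.72. The second, chr12:3690434-3690941, was open in 68 nuclei of run 3 (9.09%), against 8 nuclei of run 1 (1.86%), with a log2 ratio of 1.64.

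The most widely open of the 10 was chr14:15790357-15790822, open in 108 nuclei of run 3 (14.4%, interval 12 to 17.2%), against 16 nuclei of run 1 (3.72%, 2.14 to 5.97%). The CPM ratio of 3.88 had an interval of 2.28 to 7.03. Runs 2 and 4, with 12.7% and 10.8% of nuclei, were also above run 1 at this peak. In CPM it stood at 92.5 in run 3 and 23.8 in run 1, with 85.6 in run 2 and 108 in run 4.

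Next in breadth was chr21:43445832-43446602, open in 97 nuclei of run 3 (13%), against 14 nuclei of run 1 (3.26%), with a log2 ratio of 1.59. At chr5:32666055-32666500 run 3 was not the highest run on either scale. There were 48 open nuclei in run 3 (6.42%), against 5 in run 1 (1.16%), while run 2 had 69 (9.65%). In CPM this was 41.1 in run 3 and 7.45 in run 1, with 64.9 in run 2 and 45.2 in run 4. The tenth peak, chr14:14983311-14983819, showed the opposite arrangement of the other runs. It was open in 7.89% of nuclei in run 3 and 1.86% in run 1, while run 2 stood at 1.82% and run 4 at 3.79%.

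**Figure D2:**
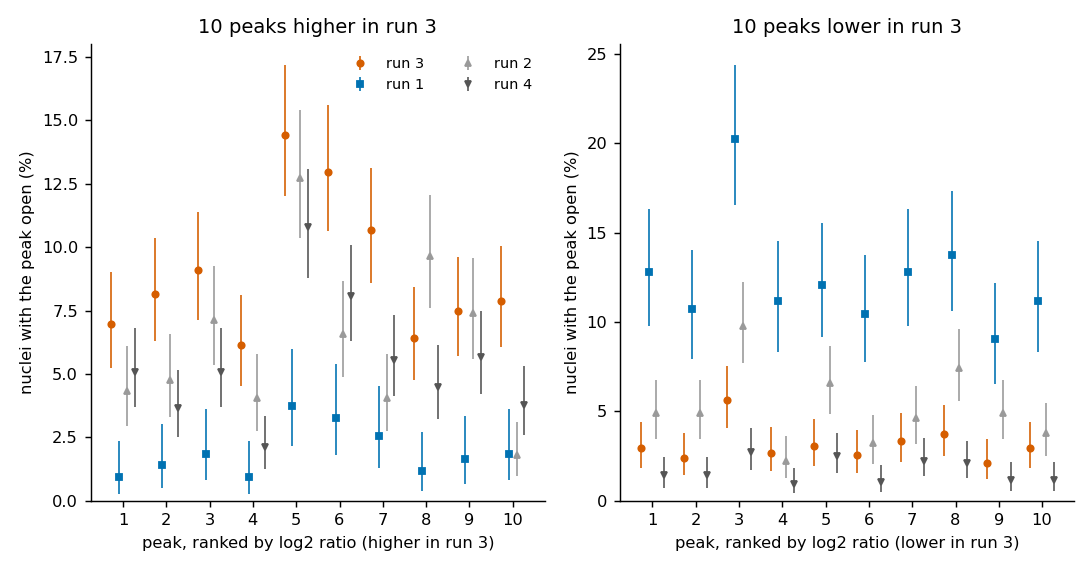
Percent of nuclei with the peak open in each run, for the 10 peaks with the highest (left) and the 10 with the lowest (right) log2 ratio among peaks open in 50 or more nuclei. Bars are exact 95% intervals. Run 3 (orange) stands at 6.15 to 14.4% against 0.930 to 3.72% for run 1 (blue) on the left, and at 2.14 to 5.61% against 9.07 to 20.2% on the right.

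Among the called peaks open in 200 or more nuclei, the sole higher one was chr20:46366338-46367055. The study's annotation pairs this peak with bmf2, a gene of the Bmf family, whose mammalian member promotes apoptosis. It was open in 192 nuclei of run 3 (25.7%), against 50 nuclei of run 1 (11.6%), and in 21.8% and 21.4% of nuclei in runs 2 and 4. In CPM it stood at 165 in run 3 and 74.5 in run 1, with 147 in run 2 and 215 in run 4, the highest of the runs. The CPM ratio of run 3 over run 1 was 2.21, with an interval of 1.61 to 3.08.

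A few other called peaks overlap regions to which the study gives a gene name. They were picked out after their values were seen, from an annotated list that was itself made on these nuclei and was read here only in part. The paper describes that list as active open regions of epicardial cells and fibroblasts that overlap candidate tissue regeneration enhancer elements. It is thus limited to 1 kind of cell and region, and all the peaks given from it here were higher in run 3. The name does not show which gene a peak acts on, and it gives no support to a direction. At the peak named for nfixa, which encodes a transcription factor of the nuclear factor I family, 132 nuclei were open in run 3 and 32 in run 1, a log2 ratio of 1.09. At the peak named for med17, which encodes a subunit of the Mediator complex, 53 nuclei were open in run 3 and 9 in run 1, a log2 ratio of 1.24. The peak named for ctbp2a, which encodes a transcriptional corepressor of the CtBP family, had 44 open nuclei in run 3 and 9 in run 1, and a log2 ratio of 1.03. The peak named for mrpl33, which encodes a protein of the mitochondrial ribosome, had 55 open nuclei in run 3 and 12 in run 1, and a log2 ratio of 1.03.

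In the other direction, the 10 peaks with the lowest ratios also lie on 8 chromosomes. They were open in 2.14 to 5.61% of the nuclei of run 3 and in 9.07 to 20.2% of those of run 1. The lowest ratio belonged to chr23:33513677-33514081, which was open in 22 nuclei of run 3 (2.94%, interval 1.85 to 4.42%), against 55 nuclei of run 1 (12.8%, 9.78 to 16.3%), with 18.9 CPM in run 3 and 82.0 CPM in run 1. Its log2 ratio was -1.67, and its CPM ratio of 0.230 had an interval of 0.134 to 0.383.

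The most widely open of these 10 was chr4:11341165-11341765, open in 42 nuclei of run 3 (5.61%), against 87 nuclei of run 1 (20.2%), a log2 ratio of -1.60. Run 2 had 9.79% and run 4 had 2.73%, so that run 1 was the highest of the 4 runs. At chr1:15300275-15300606, run 3 had 20 open nuclei (2.67%), against 48 in run 1 (11.2%), a log2 ratio of -1.59. Here runs 2 and 4, with 2.24% and 0.948%, were both below run 3.

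Lower peaks outnumbered higher ones among the widely open peaks. The 11 lower peaks open in 200 to 399 nuclei were each open in 26.7 to 30.7% of the nuclei of run 1. The lowest ratio among them was that of chr7:35529474-35530123, open in 74 nuclei of run 3 (9.89%), against 126 nuclei of run 1 (29.3%). Its log2 ratio was -1.43, and its CPM ratio of 0.338 had an interval of 0.250 to 0.453. At chr15:42504710-42505492 there were 98 open nuclei in run 3 (13.1%), against 132 in run 1 (30.7%), with a log2 ratio of -1.14.

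The limit fell within a continuous range of ratios. The last higher peak inside it, chr7:29177263-29177892, had 43 open nuclei in run 3 and 9 in run 1, and the first one outside it, chr11:44721674-44722045, had 95 in run 3 and 24 in run 1. At the lower limit, chr13:49373600-49374006 was inside with 55 open nuclei in run 3 and 70 in run 1, and chr10:5702318-5702725 was outside with 22 in run 3 and 32 in run 1.

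Taken as sets, the 166 higher and 373 lower peaks open in 50 or more nuclei also differed in level from each other. A higher peak had a median of 50.6 CPM in run 3 and 16.4 CPM in run 1, values that follow from how the set was chosen. In runs 2 and 4, which had no part in the choice, the median was 42.4 and 51.7 CPM. A lower peak had a median of 29.1 CPM in run 3 and 77.5 CPM in run 1, with 35.8 and 21.4 CPM in runs 2 and 4. At both sets, the medians of runs 2 and 4 were closer to that of run 3 than to that of run 1. The sets were chosen on runs 3 and 1, and run 1 has fewer nuclei and so more counting error. The part of this choice in the closeness to run 3 was not tested. Over all 10644 peaks open in 50 or more nuclei, the median was 48.0 CPM in run 3 and 50.7 CPM in run 1, with 47.1 and 46.3 CPM in runs 2 and 4. Peak width was a median of 569 bp for the higher set, 504 bp for the lower set and 532 bp for all.

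Called peaks were spread over all 25 chromosomes. The share of higher peaks was between 1.30% of 849 peaks on chromosome 18 (interval 0.649 to 2.31%) and 3.83% of 966 peaks on chromosome 8 (2.71 to 5.24%). The share of lower peaks was between 1.76% on chromosome 8 (1.03 to 2.80%) and 3.96% of 1213 peaks on chromosome 7 (2.93 to 5.21%). The chromosomes' shares of all open calls were nearly the same in the 2 runs. Chromosome 8 held 4.37% of the open calls of run 3 and 4.18% of those of run 1, the largest excess, a log2 ratio of shares of 0.06. Chromosome 18 held 3.63% in run 3 and 3.77% in run 1, the largest deficit, a log2 ratio of -0.05.

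Called peaks had neighbours called in the same direction. Within 20 kb of the 600 higher peaks, counted between peak starts, there were 1045 neighbouring peaks among those compared, each counted once for every called peak it lay near. Of these 96 (9.19%) were also higher and 1 was lower, against 2.64% and 2.83% of all compared peaks. Within 20 kb of the 644 lower peaks, 94 of 1066 neighbours (8.82%) were also lower and 1 was higher. Nearby peaks can be open in the same nuclei, so such neighbours are not separate measurements.

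The longest stretch of higher peaks was at chr16:38346762-38397752, where all 4 peaks compared within 51.0 kb were higher. They were open in 21, 21, 23 and 28 nuclei of run 3, against 2, 1, 2 and 3 nuclei of run 1. Their summed CPM was 79.7 in run 3 and 11.9 in run 1, and it was higher still in runs 2 and 4, at 123 and 147. Each of these peaks alone was open in few nuclei, and the 4 log2 ratios lay between 1.11 and 1.28. All 4 reached the minimum number of open nuclei for comparison mainly through run 3. A neighbour as rarely open in run 1, and at equal CPM in run 3, would have been left out. The part of this minimum in all 4 compared peaks being higher was not tested.

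A better covered stretch was chr5:71994534-72008711. Its 3 peaks were open in 107, 70 and 68 nuclei of run 3, against 20, 14 and 10 nuclei of run 1. Their summed CPM was 210 in run 3 and 65.6 in run 1, with 133 in run 2 and 217 in run 4, so run 2 was between run 1 and the other runs.

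On the lower side, all 3 peaks compared within chr22:12706859-12716692 were lower, with summed CPM of 66.8 in run 3 and 204 in run 1. The middle one, chr22:12711781-12712103, is also among the 10 lowest peaks, with 19 open nuclei in run 3 and 45 in run 1. The stretch had 83.8 CPM in run 2 and 44.0 CPM in run 4. At chr1:39458060-39501800 the 3 peaks compared were again all lower, with a summed CPM of 51.4 in run 3 and 139 in run 1. Other stretches were mixed. At chr10:28196956-28242598, 3 of the 8 peaks compared were higher. At chr17:14614582-14671594, 3 of the 6 were lower, and the log2 ratios inside ran from -1.28 to 0.81.

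To ask how the kinds of nuclei differed between the runs, all 2737 nuclei were clustered on the peaks of odd-numbered chromosomes alone, and ratios were then read on even-numbered chromosomes, which had no part in making the clusters. This gave 14 clusters, numbered from the largest. They carry no cell type name, because positions of marker genes in this build were not used here. The check of the labelled nonCM origin against cell type markers was not made for the same reason.

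The 2 runs were made up differently. Cluster 2 held 70 nuclei of run 3 (9.36%, interval 7.37 to 11.7%), against 172 nuclei of run 1 (40.0%, 35.3 to 44.8%). Cluster 4 held 79 nuclei of run 3 (10.6%, 8.45 to 13%), against 80 nuclei of run 1 (18.6%, 15 to 22.6%). Cluster 1 differed the other way, with 221 nuclei of run 3 (29.5%, 26.3 to 33.0%), against 48 nuclei of run 1 (11.2%, 8.35 to 14.5%). Clusters 5, 7, 9 and 11 were all under 1.5% of run 1, and held 4.14%, 4.14%, 5.61% and 4.81% of run 3.

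Over the 14 clusters, 10 had a larger share in run 3 and 4 a smaller one, and 41.6% of the nuclei of either run would have to change cluster for the shares to be equal. Runs 2 and 4 had 13.1% and 5.57% of their nuclei in cluster 2, and 16.6% and 24.5% in cluster 1. Run 1 was thus the highest of the 4 runs in clusters 2 and 4 and the lowest in cluster 1. Depth moved with the clusters. In cluster 1 the median was 1034 open peaks in run 3 and 768.5 in run 1, and in cluster 2 it was 1810.5 in run 3 and 1725.5 in run 1. In cluster 3 it was 2107 in run 3 and 1433.5 in run 1, and in cluster 4 it was 1472 in run 3 and 1115.5 in run 1. Clusters 6, 12 and 14 had the higher median in run 1. The part of depth in the cluster shares was not tested.

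**Figure D3:**
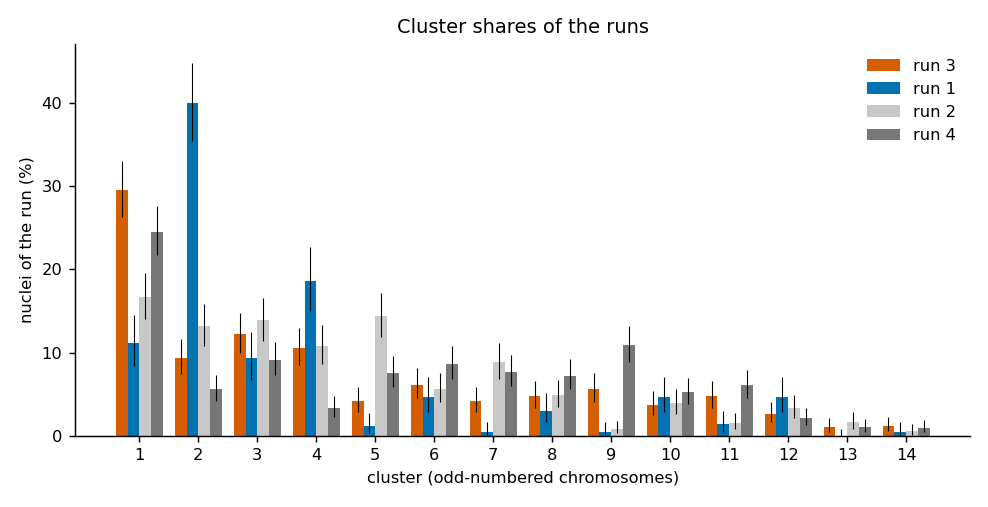
Percent of each run's nuclei in each of the 14 clusters made on odd-numbered chromosomes, with exact 95% intervals. Clusters 2 and 4 are larger in run 1 (blue, 40.0% and 18.6%) than in run 3 (orange, 9.36% and 10.6%), and cluster 1 is larger in run 3 (29.5%, against 11.2% in run 1).

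The peaks called between the runs had a cluster pattern in nuclei that the comparison had not used. On even-numbered chromosomes, 271 of 10341 peaks (2.62%) were higher and 286 (2.77%) were lower, and of these 68 and 157 were open in 50 or more nuclei. In the nuclei of runs 2 and 4, the 157 lower peaks took 1.48% of all open calls in cluster 2 and 1.65% in cluster 4. In the other clusters with 30 or more such nuclei they took between 0.0601% (cluster 1) and 0.890% (cluster 12). The 68 higher peaks took 0.897% of the open calls in cluster 1 and 0.710% in cluster 8, and between 0.0777% (cluster 4) and 0.390% (cluster 9) in the rest. By this measure, the clusters that held most of run 1 had the largest shares at the lower peaks. Cluster 1, the largest in run 3, had the largest share at the higher peaks. By mean share of nuclei with a peak open, cluster 12 stood closer to these clusters. At the lower peaks it had 10.1%, against 15.8% in cluster 2 and 13.2% in cluster 4. At the higher peaks it had 10.0%, against 11.3% in cluster 1 and 10.6% in cluster 8. All peaks of these chromosomes open in 50 or more nuclei took between 23.2% (cluster 7) and 36.5% (cluster 1) of the open calls.

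**Figure D4:**
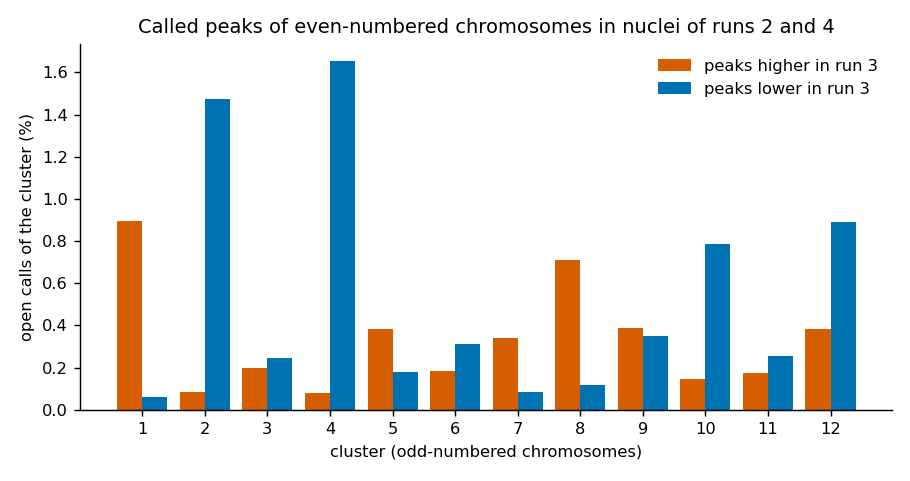
Percent of all open calls of a cluster that fell on the 68 higher (orange) and 157 lower (blue) peaks of even-numbered chromosomes, in nuclei of runs 2 and 4, which were not used to choose the peaks. Blue bars are tallest in clusters 4 and 2 (1.65% and 1.48%) and orange bars in clusters 1 and 8 (0.897% and 0.710%); clusters with fewer than 30 such nuclei are not drawn.

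Single peaks are given as examples and not as added support. They belong to these sets, and clusters 2 and 4 and clusters 1 and 8 were picked by their shares in these same nuclei. In nuclei of runs 2 and 4, the lower peak chr4:11341165-11341765 was open in 72 of 246 nuclei of clusters 2 and 4 (29.3%), against 21 of 1313 nuclei of all other clusters (1.60%). Of those 21 nuclei, 11 were in cluster 12, where 11 of 42 nuclei had this peak open (26.2%). The higher peak chr12:3690434-3690941 was open in 72 of 422 nuclei of clusters 1 and 8 (17.1%), against 22 of 1137 other nuclei (1.93%). The higher peak chr14:14983311-14983819 was open in 33 of 422 nuclei of clusters 1 and 8 (7.82%), against 12 of 1137 others (1.06%). Among those others, cluster 12 had it open in 4 of 42 nuclei (9.52%), above cluster 1 (7.98%) and cluster 8 (7.29%). The peak chr12:3690434-3690941 was open in 5 of the 42 nuclei of cluster 12 (11.9%).

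Not every higher peak followed these clusters. The most widely open of the 10, chr14:15790357-15790822, was open in 11.1% of the nuclei of clusters 1 and 8 and in 11.9% of all others in runs 2 and 4, and stood at 31.1% in cluster 5 and 27.3% in cluster 7. The peak chr6:36648696-36649300 was open in 31 of 176 nuclei of cluster 3 (17.6%) in runs 2 and 4, and in 0.711% of the nuclei of clusters 1 and 8.

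Weighting the nuclei of run 3 to the cluster shares of run 1 brought the 2 runs to the same cluster make-up. Of the 748 nuclei, 740 kept a weight above 0, and after weighting they counted as 318 nuclei of equal weight. On even-numbered chromosomes, 63 of 10341 peaks (0.609%) were then higher in run 3 and 34 (0.329%) were lower, against 271 and 286 as counted. Of the 63 and 34 peaks, 32 and 15 had also been called in the same direction as counted, and the rest crossed the limit only after weighting. The SD of the log2 ratio was 0.37 after weighting and 0.52 as counted. Among the 2036 peaks open in 100 or more nuclei, 0 were higher and 2 were lower after weighting, against 11 and 50 as counted. The median log2 ratio of the 271 higher peaks was 0.56 after weighting and 1.16 as counted, and that of the 286 lower peaks was -0.44 after weighting and -1.10 as counted. The weighted ratio uses the same counts of run 1 and the same nuclei of run 3 as the unweighted one. The 271 and 286 peaks were chosen as extremes of the ratio as counted, so medians closer to 0 after weighting follow in part from the choice.

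Ratios were also taken with clusters 2 and 4 set aside, and within those clusters alone. In the nuclei of all other clusters, 599 of run 3 and 178 of run 1, 286 of 7140 peaks of even-numbered chromosomes (4.01%) were higher and 121 (1.69%) were lower, with an SD of 0.50. Within clusters 2 and 4 together, 149 nuclei of run 3 and 252 of run 1, 50 of 4891 peaks (1.02%) were higher and 60 (1.23%) were lower, with an SD of 0.42. Peaks open in 20 or more of the nuclei concerned were compared in each case, so the peaks differ from those above. The other clusters were not brought to equal shares here, and their run 1 side rests on fewer nuclei. That side held 240751 open calls, against 670913 in all of run 1, so 1 open nucleus is worth more CPM there. The added 10 CPM then holds down counting error less. The SD and the shares called therefore cannot be set directly against those after weighting. The same holds within clusters 2 and 4, where run 3 held 268196 open calls, against 1167038 in all of run 3.

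**Figure D5:**
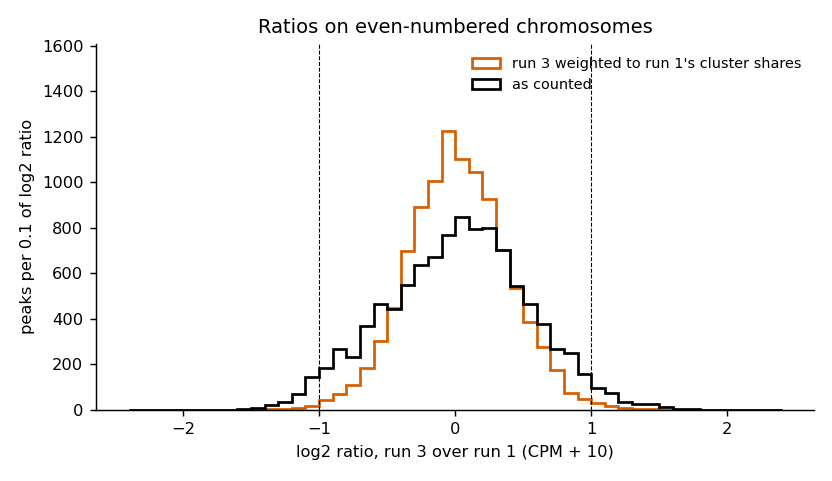
Number of peaks on even-numbered chromosomes by log2 ratio of run 3 over run 1, with run 3 weighted to the cluster shares of run 1 (orange) and as counted (black). The SD is 0.37 for the orange outline and 0.52 for the black one. After weighting, 63 and 34 of 10341 peaks lie past the dashed lines at 1 and -1, against 271 and 286 as counted. Of these, 32 and 15 lie past the same line both ways.

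Within single clusters the sets still leaned the way they had been chosen, by less. Clusters 1, 2, 3 and 4 each held 30 or more nuclei of both runs. The 157 lower peaks of even-numbered chromosomes took 1.39% of the open calls of cluster 2 in run 3 and 1.71% in run 1, and 1.61% of those of cluster 4 in run 3 and 1.90% in run 1. Over whole runs the shares were 0.505% in run 3 and 1.30% in run 1. The 68 higher peaks took 0.981% of the open calls of cluster 1 in run 3 and 0.759% in run 1, against 0.393% and 0.137% over the whole of run 3 and run 1. The ratio of run 3 over run 1 was 1.29 to 2.01 for the higher peaks and 0.546 to 0.847 for the lower peaks within the 4 clusters, against 2.88 and 0.388 over whole runs. These peaks were chosen on the same nuclei, so a lean in that direction within clusters follows in part from the choice.

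After weighting, 15 peaks of even-numbered chromosomes open in 50 or more nuclei had a log2 ratio of 1 or more or -1 or less. Of these, 9 were higher and 6 lower. Run 3 nuclei of cluster 2 carried the highest weight, 4.27, so a few nuclei there can move a weighted ratio past the limit. The part of this in the 15 peaks was not tested. The highest ratio after weighting was that of chr22:6562480-6563024, with 49 open nuclei in run 3 (6.55%), against 7 in run 1 (1.63%). Its log2 ratio was 1.37 after weighting and 1.35 as counted. It was open in 10.0% of the nuclei of cluster 2 in run 3 and 1.16% in run 1, in 7.59% of those of cluster 4 in run 3 and 2.5% in run 1, and in 5.88% of those of cluster 1 in run 3 and 0% in run 1, where 0 of 48 nuclei were open. The share was higher in run 3 in each of these clusters, although each of these shares rests on 13 or fewer open nuclei. Whether the difference lay in more than 1 cluster was not tested. Shares of nuclei are not adjusted for depth, and the median depth of each of these clusters was higher in run 3 than in run 1.

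The second, chr22:8800442-8801057, was open in 12 of 70 nuclei of cluster 2 in run 3 (17.1%), against 5 of 172 in run 1 (2.91%), and its log2 ratio was 1.36 after weighting and 1.13 as counted. The peak chr6:36648696-36649300 differed mainly in 1 cluster. In cluster 3 it was open in 32 of 91 nuclei of run 3 (35.2%), against 1 of 40 nuclei of run 1 (2.5%), and the median depth of that cluster was 2107 open peaks in run 3 and 1433.5 in run 1. Another peak of this kind was chr22:16526093-16526577, where 24 of 91 nuclei of cluster 3 were open in run 3 (26.4%) and 0 of 40 in run 1.

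On the lower side, 1 of the 6 peaks was also called as counted. This was chr2:46280663-46281082, with 39 open nuclei in run 3 (5.21%), against 70 in run 1 (16.3%), and a log2 ratio of -1.03 after weighting and -1.40 as counted. In cluster 2 it was open in 6 of 70 nuclei of run 3 (8.57%), against 40 of 172 nuclei of run 1 (23.3%), while in cluster 4 it was open in 17.7% of nuclei of run 3 and 15% of run 1. The lowest after weighting, chr10:7703193-7703540, had a log2 ratio of -1.24 after weighting and -0.61 as counted, with 0 of 70 nuclei of cluster 2 open in run 3 and 14 of 172 (8.14%) in run 1.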

How the data were processed

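The scATAC-seq values were taken from 1 matrix of 2737 nuclei by 50394 peaks, pooled over 4 libraries. The values the authors deposited are binarized open calls, 0 or 1, and not read counts. Per the submitters' processing notes, FastQC and Cell Ranger ATAC were used and the build was danRer11; versions are not given in the sources used here. The study's methods name SnapATAC for downstream steps, limits on log UMI, and removal of cardiomyocyte and putative doublet clusters. No doublet caller was therefore run. No nucleus was left out. The coordinate convention is not stated, and width is end minus start.

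Runs, CPM, ratios and calls are defined in the results. Total open calls per run were 1167038 (run 3), 670913 (run 1), 1062570 (run 2) and 841575 (run 4). Named peaks were the 10 highest and 10 lowest log2 ratios among peaks open in 50 or more nuclei, and the 5 peaks open in most nuclei; any other peak named was chosen after its values were seen. Clusters used peaks of odd-numbered chromosomes open in 10 or more nuclei, term frequency scaled to 10000 times inverse document frequency, truncated singular value decomposition (scikit-learn 1.9.0), 15 components, 15 neighbours and Leiden grouping (leidenalg 0.10.2) at resolution 1. None of the components reached an absolute correlation of 0.5 with log depth, above which they would have been dropped. The run 3 nuclei of a cluster were weighted by the ratio of its share in run 1 to its share in run 3, and 8 nuclei in a cluster absent from run 1 got a weight of 0. Intervals were computed with scipy 1.17.1. The CPM ratio and the weighting were tested on simulated data, the weighting with the true groups of nuclei given. The clustering, the cutting into runs and the neighbour and stretch steps were not tested in this way. The comparison, its members and lists were chosen with earlier results of these data known.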

Additional observations from a re-analysis of the deposited data

How the results depend on the processing

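The 2-fold counts of 600 higher and 644 lower peaks depended on the amount added to CPM and on the limits. With 5 CPM added they were 1381 higher and 1202 lower, with 20 CPM added 78 and 174. With a minimum of 50 open nuclei they were 166 and 373, with 100 open nuclei 36 and 136, and with a 1.5-fold limit 2898 and 3151. Under the other 7 settings (percent of nuclei in place of CPM, nuclei with at least 500 open peaks, nuclei thinned to 500 open peaks, nuclei above 3000 open peaks left out, rows with a repeated barcode left out, no minimum, peaks of 200 bp left out) the counts stayed within 1.5 times, from 503 to 814 higher and from 598 to 897 lower. The shares called moved further, because the number of peaks compared changed. With thinned nuclei only 8278 peaks reached the minimum, so the share called was 6.08% higher and 7.22% lower, against 2.64% and 2.83%. With no minimum, 1.62% of 50142 peaks were higher and 1.45% lower. With nuclei above 3000 open peaks left out, 3.65% of 19529 peaks were higher and 4.59% lower. The named higher and lower peaks kept their direction in all 140 values under 7 alternatives. Of these values 2, both with nuclei thinned to 500 open peaks, moved by more than the half-width of the counting interval. A change of the amount added to CPM cannot reverse a direction. The peaks were also chosen as extremes on these same nuclei, so the kept direction does not show how firm a peak is. The counts after weighting were 48 to 60 higher and 27 to 43 lower with Leiden resolution 0.5 or 2, with the chromosome sets exchanged, and with log term frequencies and components scaled to unit variance, the last of these chosen after seeing the data. The difference of cluster shares was 40.9 to 41.6% under these. Marker loci, motifs and genomic classes were planned and not run, because gene models and sequence of the files' build were not used here. No paired analysis was possible because no row is tied to a library. Depth left 27412 peaks open in 1 to 19 nuclei of the runs compared out of the comparison.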
